A study of Mus musculus with 48 samples.

Results

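The livers described here are those of the 36 mice whose body weight label was 27 to 31 g, out of 48 in the series: 17 controls (called WT in the labels) and 19 knockouts (KO). The mice were chosen by weight alone, so that the average difference between the genotypes could be read without the heaviest controls and the lightest knockouts. All were male C57BL/6 mice aged 4 to 6 months. Both genotypes carried floxed Bmal1 alleles (Bmal1f/f), and the KO mice carried in addition EsrCre, a Cre recombinase that is expressed throughout the body and is activated by tamoxifen. The WT mice were Cre-negative littermates. Mice of both genotypes received 5 mg of tamoxifen by gavage on each of 5 days. They were left for 7 days, held in constant darkness for 36 h and killed in darkness every 4 h over 20 h. Times are written as zeitgeber hours (ZT0, ZT4, ZT8, ZT12, ZT16 and ZT20), as in the labels. All KO mice and no WT mice carried Cre, so an effect of Cre and the loss of Bmal1 cannot be told apart. The deletion was not restricted to the liver.

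BMAL1, the protein made from Bmal1 (listed as Arntl), binds E-box elements together with a partner, CLOCK or NPAS2, and switches on the genes beside them. Among these are the Per and Cry repressors, which shut the pair off again, and the REV-ERB receptors, which repress Arntl, Clock and Npas2. In liver this loop gives daily timing to genes of lipid, glucose, bile acid and drug metabolism. Body weight is itself tied to feeding and fat stores, and liver genes of lipid and drug metabolism respond to both. The question was which differences between KO and WT liver remained when mice of like weight were compared.

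In all 48 mice the WT group weighed 30.5 g ± 2.08 (SD, n = 24) and the KO group 27.9 g ± 2.52 (n = 24), a difference of -2.54 g. Within the 27 to 31 g range the means were 29.4 g ± 1.42 (n = 17) for WT and 28.9 g ± 1.70 (n = 19) for KO, which left a difference of -0.517 g. The matching was therefore close and not complete, and averaged over hours the KO mice weighed -0.486 g relative to WT, being lighter at 4 of the 6 hours. Left out were 7 WT mice of 32 to 34 g and 5 KO mice of 23 to 26 g. Just inside the limits stood WT mice of 31 g and KO mice of 27 g, and just outside WT mice of 32 g and a KO mouse of 26 g. The kept mice made 12 groups of 2 to 4. WT had only 2 mice at ZT12 and 2 at ZT16, both ZT12 WT mice weighed 31 g, and the 3 KO mice at ZT20 all weighed 31 g. At ZT12 the kept KO mice averaged 28.3 g, 2.67 g less than the kept WT mice, which is wider apart than the genotypes in all 48 mice, so weight was not matched at that hour. At the other 5 hours the KO minus WT difference lay between -1.33 and 1.33 g. Without ZT12, 634 genes were called, 339 higher and 295 lower, and 358 of them were among the 489 called over all 6 hours.

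**Figure D1:**
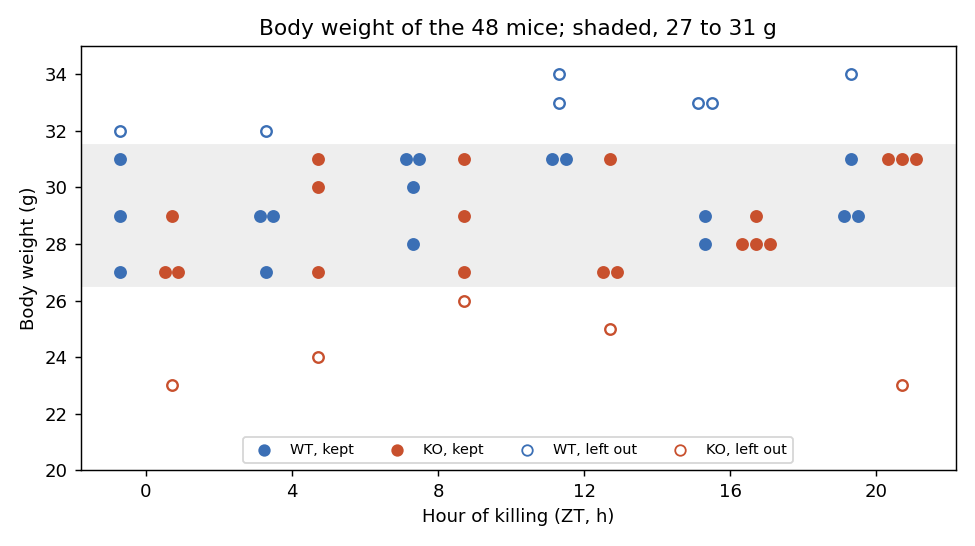
Body weight in grams of each of the 48 mice (vertical axis) at its hour of killing (horizontal axis, ZT in h). Blue points are WT and orange points KO; filled points are the 36 mice of 27 to 31 g (shaded) and open points the 12 left out, 7 WT mice above and 5 KO mice below the range.

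Each library held between 33562272 and 34035644 counts, so the libraries had been brought to a nearly common depth (a spread of 0.302% of the mean). The mean correlation of a kept library with the others of its genotype and hour lay between 0.974 and 0.99. The lowest values belonged to KO mice 21 and 20 of ZT12 and KO mouse 43 of ZT0, at 0.974, 0.9769 and 0.9799. Of the kept mice 9 lived alone, 5 WT and 4 KO, and the others came from 17 cages. Of these cages 5 held kept mice of both genotypes. Others held both genotypes only with the left-out mice counted, such as cage A9, with WT mouse 16 kept and KO mouse 15 left out.

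Across the 14836 genes tested, 489 (3.3%) differed between KO and WT of matched weight on average over the 6 hours: 271 (1.83%) were higher and 218 (1.47%) lower in KO. A gene was called where its Benjamini-Hochberg adjusted p from edgeR's quasi-likelihood test was under 0.05. In all 48 mice the same test called 1314 genes (8.86%), 733 higher (4.94%) and 581 lower (3.92%). Of these, 467 were also called at matched weight, which is 35.5% of the 1314 and 95.5% of the 489. The drop in the number of called genes came with fewer mice as well as with a narrower range of weight: residual degrees of freedom went from 36 to 24. With body weight as a term in the model of all 48 mice, 711 genes were called, 381 higher and 330 lower, and 447 of them were among the 489.

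The sizes of the differences changed less than the count. All 1314 genes had the same sign in the 36 mice, which are a subset of the 48. Their estimate at matched weight was a median of 0.948 times the estimate in all mice (quartiles 0.854 and 1.05), while the standard error was a median of 1.18 times as large. In 11 of the 1314 the estimate fell to less than 0.5 times its size. Genes picked by a call in all mice tend to have larger estimates there, so ratios below 1 come in part with that choice. Of the 1314, 1219 had an unadjusted p under 0.05 at matched weight. The 847 genes that lost their call had a median ratio of 0.914, a median standard error ratio of 1.2 and a median adjusted p of 0.145. Of the 80 genes that were called with at least a 2-fold difference in all mice, 57 were called at matched weight.

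**Figure D2:**
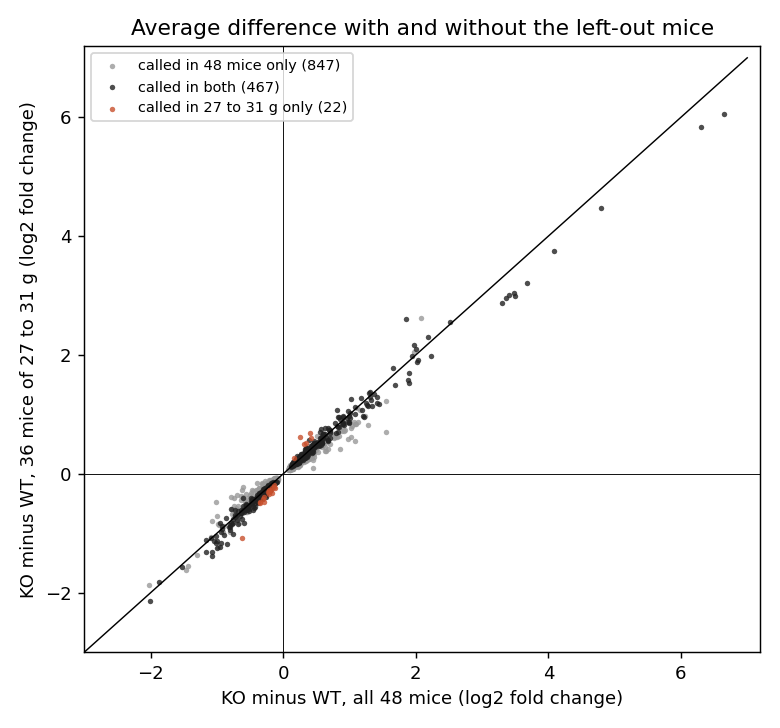
Average KO minus WT difference (log2 fold change) of each called gene in all 48 mice (horizontal axis) and in the 36 mice of 27 to 31 g (vertical axis), with the line of equal values. The 467 genes called in both (black) lie near the line out to 6.05, and the 847 called in 48 mice only (grey) mostly have small differences; the 2 sets of mice share 36 animals.

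The count of called genes depended on single mice. Without WT mouse 22 of ZT12, which left 1 WT mouse at that hour, 293 genes were called, and over the 36 fits that left out 1 mouse each the count lay between 293 and 688. Without KO mice 20, 21 and 43, which stood apart from their groups, 508 genes were called, 253 higher and 255 lower, and 340 of them were among the 489.

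Arntl, the deleted gene (ENSMUSG00000055116, chr7:120350979-120457636, mm9), had 0.979 CPM (the gene's count scaled to its library's size) in the lowest, 23.9 in the median and 47.8 in the highest WT mouse of matched weight. In KO the lowest, median and highest values were 4.60, 16.8 and 25.6 CPM. Its average difference was 0.01 ± 0.21 (log2 fold change ± SE; adjusted p = 0.989), which stands for opposite differences at different hours: KO was lower by 1.09 at ZT0 and 2.02 at ZT20 and higher by 3.38 at ZT8 on the log2 scale. The genotype difference of Arntl varied with hour (adjusted p = 0.000313). Counts over the whole gene include exons outside the floxed part, so the average does not check the deletion.

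None of the 15 E-box targets of the clock was called on average at matched weight, against 2 higher and 1 lower in all mice (Per1, Per3 and Bhlhe41). By edgeR 5 of the 15 had an unadjusted p under 0.05, and DESeq2 called none either. All 15 were called for a genotype difference that varied with hour, where 10.6% of all genes were. Per3, a period gene, was higher in KO by 3.67 at ZT0 and lower by 1.88 at ZT12 on the log2 scale. Its average of 0.69 ± 0.24 had an adjusted p of 0.129, and in all mice it was 0.59 ± 0.19 with an adjusted p of 0.0369. Npas2, the partner of BMAL1 that REV-ERB proteins repress, was the only one of the 5 REV-ERB targets called on average, at 1.70 ± 0.35 (adjusted p = 0.00468). Its KO value exceeded WT by 6.93 at ZT12 and was lower by 2.39 at ZT0 on the log2 scale, and it too varied with hour (adjusted p = 0.000104). Without ZT12, where weight was not matched, its average was 0.66 ± 0.33 and not called by edgeR (adjusted p = 0.296).

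Rises were ranked among called genes of at least 5 CPM with 1 sign at all 6 hours. The largest were in drug and steroid metabolising enzymes that are normally more abundant in female than in male mouse liver. Ly6a, Ugt2b37 and Lcn13 followed, and are not in the list of female-biased genes used here. The male-biased Hsd3b5, outside the ranking because of its -0.08 at ZT4, rose by 2.60, more than Cyp3a44 and Cyp2c69. Of 31 female-biased liver genes 13 were higher in KO at matched weight and none lower, and in all mice 16 were higher. Over all genes tested 1.83% were higher and 1.47% lower at matched weight, and 4.94% and 3.92% in all mice. List counts here and below are to be read beside these shares. The median log2 fold change of the 31 was 0.735 at matched weight and 0.971 in all mice. Over all genes the medians were 0.0004 and 0.0011. At matched weight 21 of the 31 estimates were above 0 and 10 below. Cyp2c69, a cytochrome P450 (ENSMUSG00000092008, chr19:39917150-39961259, mm9), had 33.2 CPM in the lowest, 87.2 in the median and 212 in the highest WT mouse. In KO these values were 79, 427 and 739 CPM. The rise was 1.92 ± 0.29 (adjusted p = 0.000121), beside 2.03 ± 0.25 in all mice. The ranges overlapped, but 15 of the 19 KO mice lay above every WT mouse. At ZT4, ZT8, ZT16 and ZT20 the genotypes did not overlap. Here and below, such counts of mice and hours were made for named genes only, so their share over all genes is not known. With 2 to 4 mice per group, Atp5b did not overlap at ZT4 and ZT16 either, although it was not called on average.

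Cyp3a16, another cytochrome P450, ran from 0.0609 through a median of 0.254 to 3.98 CPM in WT and from 0.121 through 9.63 to 90.8 CPM in KO. The rise was 5.84 ± 0.91 (adjusted p = 0.000179), and the KO mice spread widely, the lowest lying within the WT range. Cyp3a41a, of the same family, went from 0.0304 through 8.33 to 61.5 CPM in WT and from 6.79 through 129.8 to 209.9 CPM in KO, a rise of 3.05 ± 0.64 (adjusted p = 0.00538). Cyp3a44 rose by 1.98 ± 0.48 (adjusted p = 0.016); it lost its call without WT mouse 22 of ZT12 (adjusted p = 0.062) and without WT mice 29 or 32 of ZT16. The Cyp3a genes are near copies of one another, and how reads that match several of them were counted is not given, so the share of each is uncertain.

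Of the listed sulfotransferases, which add sulfate to steroids, bile acids and drugs, Sult1e1, Sult2a1, Sult2a2 and Sult1d1 rose. Sult1a1 and Sult1b1, called in all mice, were not called at matched weight. Sult1e1, which inactivates oestrogens, was between 0 and 0.597 CPM in WT (median 0.116) and between 0.279 and 130.3 CPM in KO (median 2.57). Its rise was 4.47 ± 0.53 (adjusted p = 8.18e-06), and it did not overlap between the genotypes at any of the 6 hours, although the 0.279 CPM of the lowest KO mouse lay within the WT range over all hours. Sult2a1 (3.21 ± 0.57, adjusted p = 0.001) and Sult2a2 (2.99 ± 0.53, adjusted p = 0.000986) rose as well; they are near copies of each other and were below 5 CPM in the median WT mouse. In all mice the estimates for Sult1e1, Sult2a1 and Sult2a2 were 4.80, 3.69 and 3.49, so each was smaller at matched weight and remained called.

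Of 31 male-biased liver genes 3 were higher (Hsd3b5, Ugt2b1 and Ihh) and 1 lower (Cyp2u1) at matched weight, against 3 higher and 4 lower in all mice. The falls in all mice that were not called at matched weight were Selenbp2, Gstp1 and Cspg5. Cyp2u1 fell by 0.59 ± 0.16 on the log2 scale (adjusted p = 0.0399), a call that 16 of the 36 fits without 1 mouse kept; without WT mouse 22 of ZT12 its adjusted p was 0.212. Hsd3b5, a steroid dehydrogenase, had a median of 1.48 CPM in WT and 12.7 CPM in KO, with a KO range of 0.779 to 212 CPM. It rose by 2.60 ± 0.66 (adjusted p = 0.023) and was called in 31 of the 36 fits without 1 mouse, with an adjusted p of 0.088 without KO mouse 43 of ZT0 and 0.122 without ZT12.

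Hsd17b6, a hydroxysteroid dehydrogenase that acts on androgens (ENSMUSG00000025396, chr10:127427997-127437734, mm9), was 10.4 CPM in the lowest, 40 in the median and 116 in the highest WT mouse. In KO the values were 4.94, 9.67 and 27.6 CPM. It fell by 1.81 ± 0.28 on the log2 scale (adjusted p = 0.000193), and 10 of the 19 KO mice lay below every WT mouse. Among 23 steroid hormone enzymes and receptors 4 were higher and 2 lower (over all genes 1.83% and 1.47%), the same counts as in all mice. Cyp17a1, an enzyme of androgen synthesis, rose by 1.07 ± 0.21 (adjusted p = 0.00321).

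Lipoprotein lipase (Lpl, ENSMUSG00000015568, chr8:71404390-71431347, mm9), which releases fatty acids from circulating triglyceride, was 19.3 CPM in the lowest, 41.5 in the median and 130.3 in the highest WT mouse. In KO it was 57.3, 112.4 and 402 CPM. It rose by 1.37 ± 0.16 (adjusted p = 8.18e-06), beside 1.302 ± 0.15 in all mice. At 5 of the 6 hours, ZT0 being the exception, every KO mouse was above every WT mouse of the same hour. The difference varied with hour (adjusted p = 0.00739), from -0.12 at ZT0 to 3.01 at ZT12.

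Around Lpl, 34 genes of lipid storage, lipolysis and lipoproteins were tested. At matched weight 2 rose and 7 fell (over all genes 1.83% and 1.47%), against 4 and 9 in all mice. The falls were Apoc2, the cofactor that lipoprotein lipase needs, the lipases Pnpla2 and Mgll, the lipid droplet proteins Cidec, Fitm2 and Plin5, and Angptl4, a secreted inhibitor of lipoprotein lipase. Cidec lost its call by edgeR without ZT12 (-0.48 ± 0.15, adjusted p = 0.059). Apoc2 ran from 102 through 139 to 185 CPM in WT and from 78.9 through 102 to 149.8 CPM in KO. It fell by 0.43 ± 0.07 on the log2 scale (adjusted p = 0.000193), and 10 KO mice lay below every WT mouse.

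Fatty acid oxidation genes and targets of PPARA, the receptor that switches them on in fasting, moved one way. Of 32 tested 8 fell and none rose at matched weight (over all genes 1.47% and 1.83%), against 15 and 0 in all mice. At matched weight 30 of the 32 estimates were below 0. The median was -0.140 at matched weight and -0.145 in all mice, so the smaller number of calls came with a nearly equal median. Vnn1, a pantetheinase and PPARA target, was 64.9, 94.1 and 129.8 CPM in the lowest, median and highest WT mouse and 40, 63.8 and 90.8 CPM in KO. It fell by 0.57 ± 0.08 on the log2 scale (adjusted p = 6.71e-05), and 12 of the 19 KO mice lay below every WT mouse. Cyp4a14, which hydroxylates fatty acids, fell by 1.01 ± 0.23 (adjusted p = 0.0104), with medians of 953 CPM in WT and 378 CPM in KO. In all mice it was -0.76 ± 0.20. Without ZT20 it was -0.79 ± 0.25 at matched weight and not called by edgeR (adjusted p = 0.105). Its near copies make its counts uncertain. Cpt2, which brings fatty acids into the mitochondrial matrix, fell by 0.22 ± 0.05 (adjusted p = 0.00618) and Hadhb, a subunit of the mitochondrial trifunctional protein, by 0.21 ± 0.04 (adjusted p = 0.00567).

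Fatty acid and triglyceride synthesis held fewer calls. Of 24 genes 1 rose (Pklr, liver pyruvate kinase) and 2 fell (Fads2 and Lpin2), against 3 and 6 in all mice; Scd1, Scd2, Elovl5, Thrsp, Dgat1 and Mogat1 lost their calls. All 3 were fragile: Pklr was called in 29, Fads2 in 25 and Lpin2 in 15 of the 36 fits without 1 mouse. Without ZT12, Fads2 was -0.07 ± 0.07 (adjusted p = 0.633) and Lpin2 -0.32 ± 0.12 (adjusted p = 0.143), neither called by edgeR. Of 24 cholesterol synthesis and uptake genes none was called on average in either set by edgeR, and the median moved from 0.137 in all mice to -0.018 at matched weight. At matched weight 1 of the 24 had an unadjusted p under 0.05, DESeq2 called 0, and 13 varied with hour.

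In glucose and glycogen metabolism 5 of 26 genes rose and 2 fell (over all genes 1.83% and 1.47%), against 6 and 3 in all mice. Gys2, the liver glycogen synthase (ENSMUSG00000030244, chr6:142371133-142421629, mm9), ran from 89.4 through 181 to 451 CPM in WT but only from 105 through 132 to 149.9 CPM in KO. It fell by 0.55 ± 0.07 on the log2 scale (adjusted p = 3.01e-05), with -1.47 at ZT8 and 0.43 at ZT0. The KO mice filled a narrow range, and 10 of the 17 WT mice lay above all of them. Ppp1r3b, which targets a phosphatase to glycogen, rose by 0.74 ± 0.12 on average (adjusted p = 0.000443). Its difference varied with hour (adjusted p = 6.33e-05), from 2.26 at ZT8 to -0.58 at ZT12. Gckr, which holds glucokinase in the nucleus, rose by 0.30 ± 0.05 (adjusted p = 0.000411) and varied with hour (adjusted p = 0.0333). Pygl, liver glycogen phosphorylase, rose by 0.25 ± 0.05 (adjusted p = 0.00745). Trib3, a stress-induced pseudokinase that binds AKT, fell by 1.16 ± 0.19 on average (adjusted p = 0.000384). Its difference varied with hour too (adjusted p = 0.00202), from -3.14 at ZT8 to 0.14 at ZT16.

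**Figure D3:**
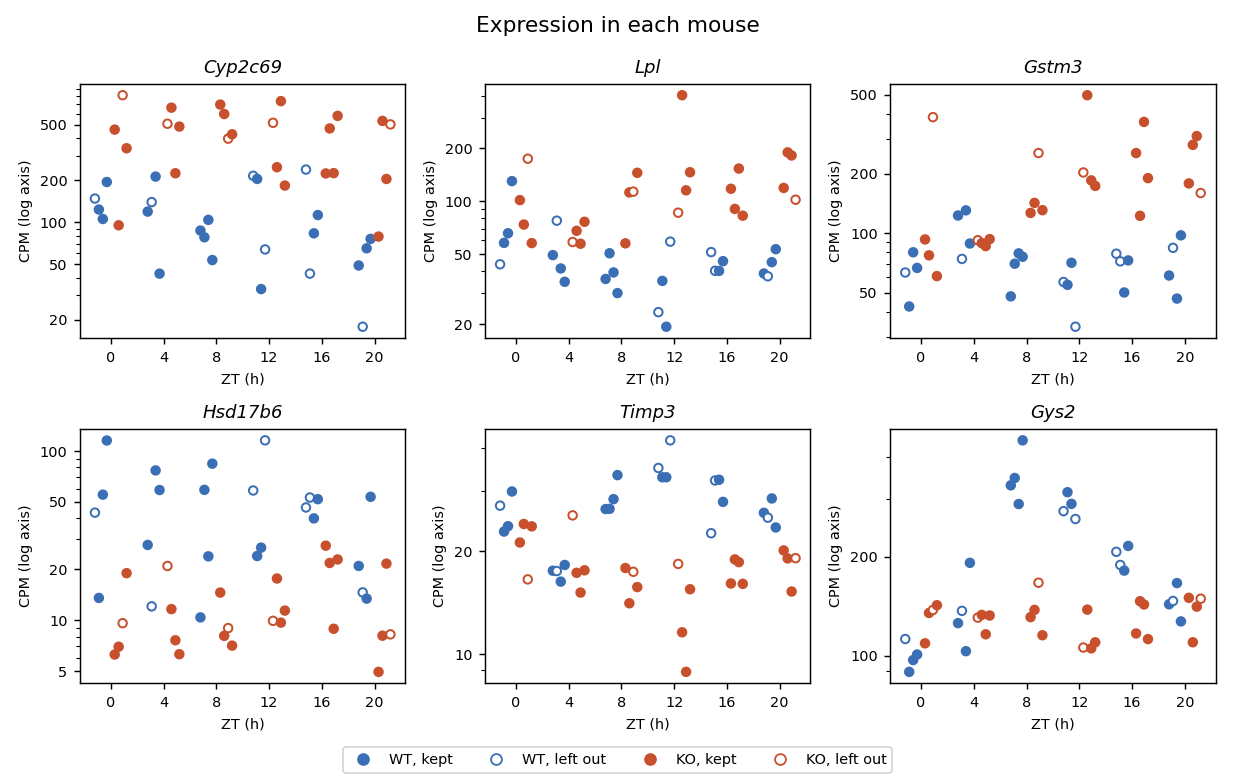
Expression (CPM, vertical axes, log scale) of 6 called genes in each of the 48 mice by hour (horizontal axes, ZT in h), WT blue and KO orange. Filled points are mice of 27 to 31 g and open points those left out; the open points mostly fall among the filled ones of their genotype, and the lowest kept KO mice of Cyp2c69 lie within the WT range.

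BMP signalling is the pathway through which bone morphogenetic proteins set hepcidin and so the body's iron uptake. Of 26 iron and BMP genes 6 fell at matched weight (1.47% of all genes did) and none rose, against 7 and 2 in all mice. The other 20 were not called: the median of the 26 was -0.035, and 9 estimates were above 0. The 6 were Hamp (hepcidin), the ligand Bmp6, the signal transducer Smad9, the pathway inhibitor Smad7, and Id1 and Atoh8, transcription factors that the pathway induces. Without ZT20 Hamp and Id1 lost their calls by edgeR (adjusted p = 0.0549 and 0.0654). For Smad7, promoter stretches were not looked at singly. Among the other called genes of this list, Bmp6 and Atoh8 had an exact CACGTG E-box word just upstream of a RefSeq start site (GRCm38.p6). Over all genes tested 7.89% of such stretches held the word. It also stood in those of the called genes Igfbp2, Lpin2 and Hsph1 of other lists. The Bmp6 and Atoh8 stretches are shown here because BMAL1 binds such elements, and binding to them was not tested. The capitals mark the word.
Bmp6 (chr13:38345466-38345715, plus strand): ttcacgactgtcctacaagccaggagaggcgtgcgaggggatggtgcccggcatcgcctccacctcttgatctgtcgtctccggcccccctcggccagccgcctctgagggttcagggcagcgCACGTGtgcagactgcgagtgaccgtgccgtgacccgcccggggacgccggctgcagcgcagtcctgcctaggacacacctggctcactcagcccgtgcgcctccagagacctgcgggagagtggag
Atoh8 (chr6:72235578-72235827, minus strand): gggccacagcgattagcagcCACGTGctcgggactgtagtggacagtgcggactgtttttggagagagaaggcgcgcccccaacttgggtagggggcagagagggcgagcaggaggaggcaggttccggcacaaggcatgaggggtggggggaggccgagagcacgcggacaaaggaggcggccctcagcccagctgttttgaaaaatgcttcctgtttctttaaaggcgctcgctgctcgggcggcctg

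Bmp6 was 6.34, 8.15 and 12.8 CPM in the lowest, median and highest WT mouse and 4.54, 6.72 and 8.11 CPM in KO. It fell by 0.36 ± 0.06 on the log2 scale (adjusted p = 0.000411). At ZT0, ZT8, ZT12 and ZT20 the genotypes did not overlap. Atoh8 ran from 7.61 through 17.3 to 35.1 CPM in WT and from 6.94 through 11.8 to 19.6 CPM in KO. It fell by 0.62 ± 0.13 (adjusted p = 0.00443), and the difference varied with hour (adjusted p = 0.0159). Smad9 fell by 0.88 ± 0.17 (adjusted p = 0.00302), from a median of 14.7 CPM in WT to 7.75 CPM in KO. Both Smad9 and Bmp6 were called in each of the 36 fits without 1 mouse.

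Hamp fell by 1.11 ± 0.29 (adjusted p = 0.0306), with 196, 546 and 1098 CPM in the lowest, median and highest WT mouse and 25.8, 290.1 and 629 CPM in KO. Its ranges overlapped widely. Its call held in 30 of the 36 fits without 1 mouse and was lost, among others, without WT mouse 29 of ZT16 (adjusted p = 0.116). Id1, at medians of 10.7 CPM in WT and 6.96 CPM in KO, fell by 0.85 ± 0.20 (adjusted p = 0.0127). It lost its call without the same mouse (adjusted p = 0.0504).

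That mouse, WT mouse 29 of ZT16, stood apart for the acute phase protein Saa2, with 8770 CPM against a WT median of 111 CPM. Saa2 was the only one of 31 acute phase proteins called, and fell by 2.15 ± 0.57 on the log2 scale (adjusted p = 0.0321). Without mouse 29 its adjusted p was 0.309, and 27 of the 36 fits without 1 mouse called it. In WT the lowest value was 35.6 CPM, and in KO the values ran from 22 through 95.5 to 348 CPM, so the medians of the genotypes were close.

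Among 34 xenobiotic metabolism genes 6 rose and 1 fell (over all genes 1.83% and 1.47%), against 9 and 2 in all mice. Among 26 targets of NRF2, a regulator of antioxidant genes, 5 rose and none fell, against 7 and 0. The median of the 26 was 0.022, with 15 estimates above 0 and 11 below. Of the NRF2 rises 4 were glutathione S-transferases of the mu class. Gstm3 (ENSMUSG00000004038, chr3:107745251-107772201, mm9) was 42.7, 71 and 131 CPM in the lowest, median and highest WT mouse and 60.8, 142 and 498 CPM in KO. It rose by 1.15 ± 0.15 (adjusted p = 1.94e-05), and 11 of the 19 KO mice lay above every WT mouse. Gstm2 rose by 0.88 ± 0.11 (adjusted p = 8.21e-06) and Gstm1 by 0.52 ± 0.10 (adjusted p = 0.00247); the Gstm genes are near copies, so their separate values are uncertain. For Gstm2 and Gstm3 the KO minus WT differences were larger at ZT12 to ZT20 than at ZT0 and ZT4, and both varied with hour (adjusted p = 0.00545 and 0.00395).

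Cyp2c37, a cytochrome P450, rose by 0.56 ± 0.08 (adjusted p = 7.9e-05), from a WT range of 315 to 549.7 CPM to a KO range of 434 to 1060.4 CPM. Of the 19 KO mice 14 lay above every WT mouse. Gstt2, a glutathione S-transferase of the theta class, moved the other way: it fell by 0.78 ± 0.09 (adjusted p = 8.18e-06), from 33.5, 58.2 and 103 CPM in WT to 18.5, 34.1 and 53.6 CPM in KO. At every hour but ZT0 all KO mice were below all WT mice for Gstt2.

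Of 24 bile acid genes 3 rose and 2 fell (over all genes 1.83% and 1.47%), against 5 and 3 in all mice. Cyp8b1, which makes the cholic acid branch of bile acids, fell by 0.84 ± 0.21 (adjusted p = 0.0214), with 80.6, 239.9 and 504 CPM in the lowest, median and highest WT mouse and 82.6, 118 and 243 CPM in KO. It lost its call without WT mouse 32 of ZT16 (adjusted p = 0.116) and without WT mouse 19 of ZT12. Akr1d1, a reductase of bile acid synthesis, rose by 0.26 ± 0.06 (adjusted p = 0.00846), and Akr1c6 rose by 0.27 ± 0.05 (adjusted p = 0.00328). The Akr1c6 difference varied with hour (adjusted p = 0.0113), from -0.16 at ZT4 to 0.58 at ZT20.

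Ly6a and Timp3 lay outside these lists. Ly6a, a surface antigen (ENSMUSG00000075602, chr15:74825308-74828064, mm9), was 9.28, 16.2 and 25.1 CPM in the lowest, median and highest WT mouse and 19.2, 34 and 97.1 CPM in KO. It rose by 1.34 ± 0.16 (adjusted p = 8.18e-06), and 17 of the 19 KO mice lay above every WT mouse. Timp3, an inhibitor of metalloproteinases (ENSMUSG00000020044, chr10:85763117-85812251, mm9), was 16.3, 26.6 and 33.3 CPM in WT and 8.89, 17.3 and 24 CPM in KO. It fell by 0.64 ± 0.06 (adjusted p = 3.43e-07), and the difference varied with hour (adjusted p = 0.00055), from -0.06 at ZT4 to -1.46 at ZT12, and 9 of the 19 KO mice lay below every WT mouse. No gene separated all KO from all WT mice over the whole 36.

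Ribosomal protein genes showed the largest loss of calls among the lists. Of 44 tested, 26 were higher in KO in all mice and 5 at matched weight: Rpl4, Rpl5, Rpl7, Rpl10 and Rpl12. None was lower. The median was 0.1496 at matched weight and 0.149 in all mice, and all 44 estimates were above 0 at matched weight, so the calls were lost without a smaller median. Rpl12 rose by 0.25 ± 0.06 (adjusted p = 0.0219), from 161, 199.98 and 252 CPM in the lowest, median and highest WT mouse to 180.1, 223 and 427 CPM in KO. This median is small beside these ranges, which overlapped. Rpl12 lost its call without WT mouse 22 of ZT12 (adjusted p = 0.074), as did Rpl4 (0.082), Rpl5 (0.097) and Rpl7 (0.074). By edgeR 36 of the 44 had an unadjusted p under 0.05, and DESeq2 called 9. Ribosomal protein genes have many processed copies in the genome, so reads may be shared with these.

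Subunits of oxidative phosphorylation likewise lost their 4 falls (Ndufs1, Sdha, Sdhd and Atp5b of 39), with medians of -0.059 at matched weight and -0.060 in all mice; 7 of the 39 had an unadjusted p under 0.05 by edgeR, and DESeq2 called 2, Ndufs1 and Sdha. Sdha, a subunit of succinate dehydrogenase, was -0.16 ± 0.05 at matched weight (adjusted p = 0.0571) and -0.13 ± 0.04 in all mice (adjusted p = 0.0181). Glucocorticoid targets went from 5 higher and 1 lower of 18 in all mice to 1 and 2, and Tsc22d3, induced by glucocorticoids, went from 0.44 ± 0.12 (adjusted p = 0.0125) to 0.39 ± 0.12 (adjusted p = 0.0788). Of 18 heat shock proteins 3 rose and 1 fell (over all genes 1.83% and 1.47%). Hspb1, a small heat shock protein, fell by 0.83 ± 0.15 (adjusted p = 0.00171). Without ZT20 it was -0.62 ± 0.18 and not called by edgeR (adjusted p = 0.0726).

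The remaining lists held few calls at matched weight. Over all genes 1.83% were higher and 1.47% lower, so single calls are not read as results about a list. Of 18 genes of the growth hormone axis 1 was lower, Igfbp2, a binding protein for insulin-like growth factors. Igfbp2 was 122, 265 and 443 CPM in the lowest, median and highest WT mouse and 58.2, 162 and 402 CPM in KO, and it fell by 0.75 ± 0.17 on the log2 scale (adjusted p = 0.008). Of 27 fasting and insulin signal genes Lcn13 rose and Trib3 fell, against 2 and 3 in all mice. Lcn13, a lipocalin, rose by 1.26 ± 0.34 (adjusted p = 0.0362), a call that 17 of the 36 fits without 1 mouse kept. Of 34 urea cycle and amino acid catabolism genes Mat1a rose and Sds fell, against 4 and 3 in all mice. Mat1a, which makes the methyl donor S-adenosylmethionine, varied with hour (adjusted p = 0.0292), from -0.40 at ZT12 to 0.65 at ZT0. Of 24 cell cycle genes Ccne2 alone was called, higher in KO, and of 25 genes of the unfolded protein response Trib3 alone, lower. Of 19 genes of NAD metabolism none was called by edgeR, with 1 at an unadjusted p under 0.05, and DESeq2 called 1, Acmsd. Of 8 other clock components none was called by edgeR, with 1 at an unadjusted p under 0.05, and none by DESeq2.

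**Figure D4:**
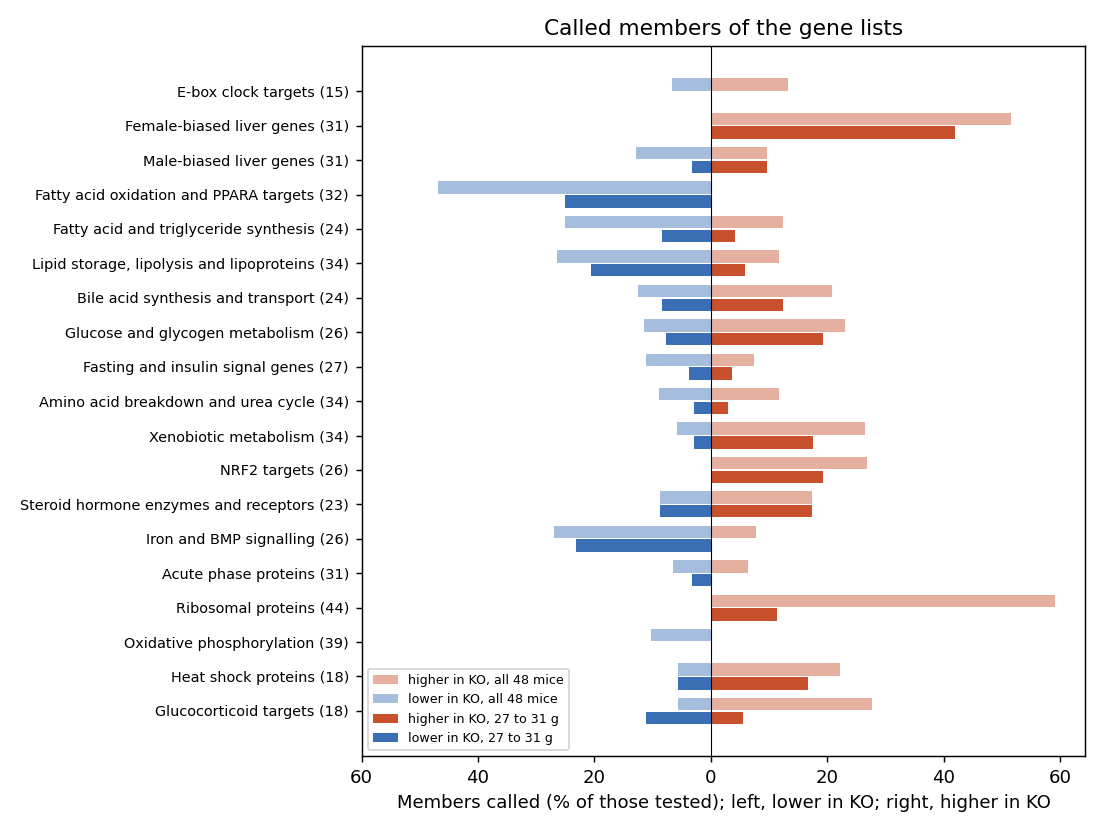
Called members of each gene list as a percentage of the members tested (number in brackets), higher in KO to the right and lower to the left, in all 48 mice (pale) and at 27 to 31 g (dark). Shown are the lists with 3 or more called genes in all mice. Female-biased genes keep 13 of 16 rises, ribosomal proteins 5 of 26, and fatty acid oxidation genes 8 of 15 falls.

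Among genes of at least 5 CPM that were called in 48 mice and not in 36, those whose estimate shrank most when the left-out mice were removed were Selenbp2, Cyp2a22, Atxn1, Ugt1a5 and Serpine2. Selenbp2, a selenium-binding protein that is male-biased in liver, went from -1.01 ± 0.33 (adjusted p = 0.0481) to -0.47 ± 0.39 (adjusted p = 0.602). At matched weight it was 23.8, 157 and 960 CPM in the lowest, median and highest WT mouse and 24.3, 83.8 and 677 CPM in KO, which overlapped almost wholly. The median of the 7 heavier WT mice was 347 CPM and that of the 5 lighter KO mice 99.5 CPM. With hour in the model, heavier WT mice differed from kept WT mice by 1.09 ± 0.51 (adjusted p = 0.992). Lighter KO mice differed from kept KO mice by -0.89 ± 0.60 (adjusted p = 0.888). The 5 genes were picked by their shrinkage, so left-out mice that stand apart in them follow from the choice.

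Serpine2, an inhibitor of serine proteases, went from -0.74 ± 0.19 (adjusted p = 0.00895) to -0.41 ± 0.18 (adjusted p = 0.233). The kept WT mice had 6.68, 11.7 and 26.4 CPM and the kept KO mice 4.06, 9.09 and 26.7 CPM as lowest, median and highest. The heavier WT mice had a median of 26.2 CPM and the lighter KO mice one of 5.53 CPM. These medians lay on either side of those of the kept mice and are not matched for hour. With hour in the model, heavier WT mice differed from kept WT mice by 0.86 ± 0.27 (adjusted p = 0.992). Lighter KO mice differed from kept KO mice by -0.31 ± 0.33 (adjusted p = 0.939).

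Ugt1a5, a glucuronosyltransferase, went from 0.46 ± 0.14 (adjusted p = 0.0275) to 0.11 ± 0.10 (adjusted p = 0.674). The lighter KO mice had 61.2, 34, 58.6, 50.3 and 53.1 CPM at ZT0, ZT4, ZT8, ZT12 and ZT20, beside a median of 28.6 CPM in kept KO mice and 27.2 CPM in kept WT mice. Of the 5 lighter KO mice 4 were thus above the highest kept WT mouse, at 37 CPM. So were 4 of the 19 kept KO mice, the highest of them at 58.9 CPM. At matched weight the Ugt1a5 difference between genotypes varied with hour by edgeR (adjusted p = 0.0297), with 1.03 at ZT8. With hour in the model, lighter KO mice exceeded kept KO mice by 0.87 ± 0.18, not called by edgeR (adjusted p = 0.128). The genes of the Ugt1a cluster share their last exons, so Ugt1a5 cannot be told apart from its neighbours with certainty in these counts. Cyp2a22, a cytochrome P450, went from 1.27 ± 0.22 (adjusted p = 9.65e-05) to 0.82 ± 0.25 (adjusted p = 0.0661), and Atxn1, a transcriptional repressor, from -0.60 ± 0.20 (adjusted p = 0.0454) to -0.23 ± 0.20 (adjusted p = 0.636).

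The left-out mice were also compared directly with kept mice of their own genotype and hour. For the heavier WT mice no gene was called (0.0%), with 667 (4.5%) at an unadjusted p under 0.05; DESeq2 called 1, Tceal8, at -0.65. For the lighter KO mice none was called either (0.0%), with 856 (5.77%) at an unadjusted p under 0.05, and DESeq2 called 6: Bcam, Porcn, Cpe, Msln and Ugt1a5 higher and Dpy19l3 lower. Whether the KO minus WT difference itself was different between left-out and kept mice was tested by a contrast added after the data were seen; it called 1 gene (0.00674%), Dpy19l3, with 644 (4.34%) at an unadjusted p under 0.05.

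Dpy19l3, a mannosyltransferase of the endoplasmic reticulum (ENSMUSG00000043671, chr7:36470184-36539473, mm9), was 19.2, 44.3 and 60.7 CPM in the lowest, median and highest kept WT mouse and 23.6, 37.3 and 52.2 CPM in kept KO mice. In the 5 lighter KO mice it lay between 19 and 28.7 CPM, and in the 7 heavier WT mice between 36.5 and 66.9 CPM. These ranges did not overlap, but Dpy19l3 was picked by a contrast of these same mice, so the gap comes with that choice. The ranges are also not matched for hour. The KO minus WT difference of left-out mice minus that of kept mice was -1.001 ± 0.16 on the log2 scale (adjusted p = 0.00396). Its average difference was -0.39 ± 0.09 in all mice (adjusted p = 0.00345) and -0.15 ± 0.08 at matched weight (adjusted p = 0.358).

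With weight as a continuous measure within genotype and hour, over all 48 mice, 4 genes were called (0.027%), 2 upward with weight (0.0135%) and 2 downward (0.0135%), with 777 (5.24%) at an unadjusted p under 0.05. Dpy19l3 rose by 0.09 ± 0.02 per g on the log2 scale (adjusted p = 0.00542) and Tiam2, an exchange factor for the GTPase RAC, by 0.07 ± 0.01 per g (adjusted p = 0.0415). Bcam, an adhesion molecule, changed by -0.08 ± 0.01 per g (adjusted p = 0.0103) and Ugt1a1, which conjugates bilirubin, by -0.05 ± 0.01 per g (adjusted p = 0.00492). At matched weight none of the 4 was called between genotypes by edgeR. The slope within WT alone called no gene by edgeR (0.0%), with 366 (2.47%) at an unadjusted p under 0.05. The slope within KO alone called 2 (0.0135%), both downward (0.0135%), with 808 (5.45%) at an unadjusted p under 0.05. The count of 4 over all 48 mice ran from 1 to 14 when 1 mouse was left out, the lowest without KO mouse 39 of ZT20 and the highest without KO mouse 21 of ZT12.

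**Figure D5:**
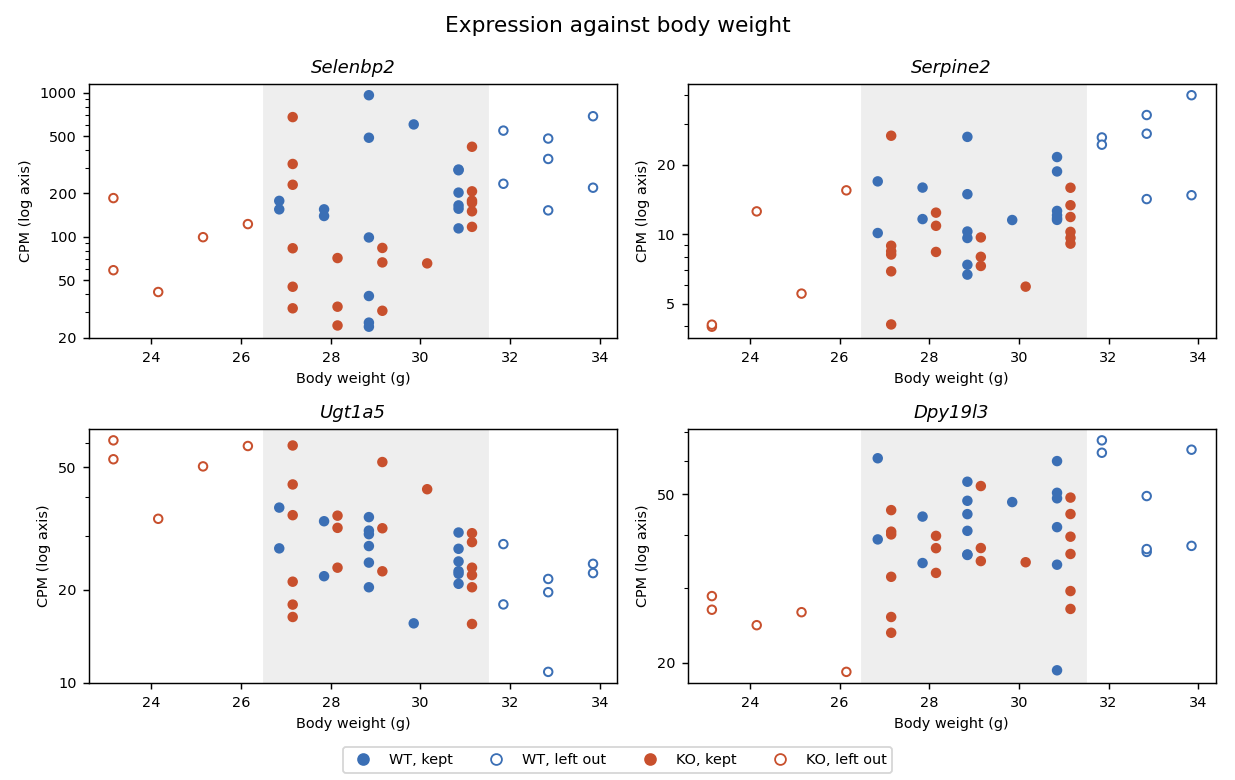
Expression (CPM, vertical axes, log scale) of Selenbp2, Serpine2, Ugt1a5 and Dpy19l3 in each of the 48 mice against body weight in grams (horizontal axes), WT blue and KO orange, with 27 to 31 g shaded. Open points are the left-out mice: in Dpy19l3 the 5 lighter KO mice (19 to 28.7 CPM) lie below the 7 heavier WT mice (36.5 to 66.9 CPM), while filled points of the genotypes overlap. The genes shown were picked by results that used the left-out mice, so open points that stand apart come with that choice.

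Conversely, 22 genes were called at matched weight and not in all mice, 6 higher and 16 lower in KO. Their estimates were a median of 1.48 times those in all mice. A ratio above 1 comes with choosing genes called only at matched weight. The 5 with the smallest p were Pparg, Disp2, Slc6a8, Sds and Cep110. Pparg, a nuclear receptor of fat storage, was 9.84, 13.7 and 19.4 CPM in the lowest, median and highest WT mouse and 7.80, 11.9 and 14.9 CPM in KO. It went from -0.21 ± 0.08 in all mice (adjusted p = 0.11) to -0.30 ± 0.07 (adjusted p = 0.022). Sds, which breaks down serine, went from -0.31 ± 0.12 (adjusted p = 0.0927) to -0.42 ± 0.11 (adjusted p = 0.0358). Each of the 5 lost its call in at least 2 of the 36 fits without 1 mouse; Pparg lost it without WT mouse 22 of ZT12 (adjusted p = 0.083) and without WT mouse 29 of ZT16. Without ZT12 none of the 5 was called by edgeR, with adjusted p from 0.0679 for Slc6a8 to 0.277 for Cep110.

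Many more genes differed between the genotypes in a way that varied with hour than on average: 1580 of 14836 (10.6%) at matched weight. The 5 with the smallest p were Pcbp4, Fgf1, Odc1, Hsp90aa1 and Casp6, none called on average. Fgf1, a growth factor, was higher in KO by 0.75 at ZT4 and lower by 0.67 at ZT16 on the log2 scale (adjusted p = 1.9e-06), and at all 6 hours its genotypes did not overlap. Pcbp4, an RNA-binding protein, took the opposite course, lower by 0.86 at ZT8 and higher by 1.24 at ZT16 (adjusted p = 6.07e-07). Odc1, the first enzyme of polyamine synthesis, was higher in KO by 0.77 at ZT0 and lower by 1.17 at ZT16 (adjusted p = 2.64e-06).

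Markers of cell types served to check the samples. The 13 hepatocyte markers summed to 43405 to 57974 CPM (median 49518) in kept WT mice and 43229 to 66164 CPM (median 50209) in kept KO mice, and none was at 0; Ahsg alone was called, higher by 0.25 ± 0.06 (adjusted p = 0.0271). Of 13 endothelial markers Kdr alone was called, lower by 0.20 ± 0.05 (adjusted p = 0.0421), and 11 of the 36 fits without 1 mouse kept that call. The endothelial sum was 641 to 929 CPM in WT and 543 to 888 CPM in KO. By edgeR none of the 14 Kupffer cell and macrophage, 7 neutrophil, 12 T and NK cell, 8 B cell, 9 cholangiocyte and 12 stellate cell and fibroblast markers tested was called at matched weight, nor by DESeq2. At an unadjusted p under 0.05 these lists held 4, 2, 1, 0, 1 and 0 genes in that order. Of 15 adipocyte, muscle and pancreas markers 3 passed the filter on low counts, and none was called; 1 had an unadjusted p under 0.05, and DESeq2 called 0. The Kupffer cell and macrophage sum ran from 1192 to 2317 CPM (median 1685) in WT and from 996 to 2996 CPM (median 1956) in KO, with 13 of 14 estimates above 0. The neutrophil sum was 8.31 to 44.3 CPM in WT and 7.28 to 30.6 CPM in KO, with all 7 estimates below 0. In bulk liver, fewer cells of a type and less RNA per cell cannot be told apart, and the part of these cells in the results was not tested.

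The share of promoters with an E-box word was near the background among called genes. CACGTG was searched on both strands just upstream of RefSeq start sites (GRCm38.p6), and it was found in 6.91% of such stretches of genes called higher at matched weight, 7.93% of those called lower, 9.13% of those of genes that varied with hour and 7.89% of those of all genes tested. TAGGTCA, a form of the element that REV-ERB and ROR proteins bind, was found in 2.85%, 2.2%, 2.44% and 1.88%. A stretch was listed for 203 of the 271 genes called higher and 158 of the 218 called lower. These are shares of windows, compared without a test, and a match is not a binding site.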

How the data were processed

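Liver mRNA of 48 mice was analysed, 36 of them of 27 to 31 g. Per the labels, poly-A RNA libraries were made with a kit that does not record strand. Per the submitters' processing notes, the authors used CASAVA and STAR 2.4.0f1 with build mm9. The authors deposited counts of reads for 23732 genes, whole numbers already brought to a nearly common depth. The gene models, the treatment of multiply matching reads and the step that equalised depth are not given in the sources used here. Counts were tested in R 4.3.3 with edgeR 4.0.16 after filterByExpr over all 48 libraries (minimum count 10; 14836 genes with 99.975% of counts) and TMM scaling (factors 0.899 to 1.13 over the 36). The quasi-likelihood model had 1 mean per genotype and hour, and the average is the mean of the 6 hourly KO minus WT log2 differences. Standard errors come from the F statistics. Calls are Benjamini-Hochberg adjusted p values under 0.05 over all genes tested. Levels are CPM with TMM factors from all 48 libraries, given over mice. No molecular identifiers were used, so PCR copies are counted as reads.

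Left-out mice were tested as 1 term per genotype in the model of 48. Alternatives used DESeq2 1.42.0, limma 3.58.1 (cage as a random block), other scalings, filters, weight ranges and covariates, and left out each mouse. The scripts were tested on simulated data. No pair of replicates looked like 1 library: the variance between them was at least 28.2 times that of counting. The mice and the 35 gene lists were chosen with earlier results of these data known. Named genes are Arntl; the 10 largest rises and falls among called genes of at least 5 CPM with 1 sign at all 6 hours; the 5 called in 48 and not in 36 mice that shrank most; the 5 called in 36 only with the smallest p; the 5 smallest p for heavier WT, lighter KO, weight slope and genotype by hour; and up to 4 members per list. Predicted genes were skipped. Other called list members are named without values. Some called members are not reported here.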

Additional observations from a re-analysis of the deposited data

Results flagged for a closer look

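Single mice that stood apart were looked for in groups of 4 kept mice, which were WT at ZT8 and KO at ZT16. The gap of the highest or lowest mouse to its neighbour, relative to the whole range, passed Dixon's 95% critical value in 7 of 70 tests, and chance gives about 1 in 20. WT mouse 11 of ZT8 accounted for 4 of the 7: it had 62.99 CPM of Cyp3a44, 3.055 CPM of Sult2a2, 68.03 CPM of Lcn13 and 1830 CPM of Saa2, each the highest of its group. For Cyp3a44 the other 3 mice of that group lay between 9.87 and 13.3 CPM. Smad9 was 34.54 CPM in WT mouse 16 of ZT8, and Atxn1 was 11.81 CPM in WT mouse 13 of ZT8. Ugt1a1 was 202.1 CPM in KO mouse 26 of ZT16.

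A KO minus WT difference that varied with hour was called for 1580 genes at matched weight. The KO minus WT difference of Dpy19l3 differed between left-out and kept mice, by -1.001 on the log2 scale.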

How the results depend on the processing

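At matched weight the count of called genes was 490 with DESeq2 size factors, 492 with total counts only, 496 with the filter over the 36 libraries, 414 with no filter, 682 with DESeq2, 507 with body weight and 456 with housing in the model, and 490 with cage as a random block. The range of 26 to 32 g gave 584. The range of 29 to 31 g, with 23 mice, left 1 mouse each for KO at ZT0, ZT12 and ZT16 and for WT at ZT16. The KO mouse at ZT12 was mouse 21, whose library had the lowest correlation with its group. Calls gained or lost in that range therefore cannot be laid to closer matching of weight. An additive model of hour and genotype gave 289, with 285 also called in all mice, and leaving out ZT20 gave 290, with 272 in both. Leaving out ZT12, where weight was least matched, gave 634. Leaving out 1 mouse gave 293 to 688 called genes and 285 to 602 called in both. It gave 1142 to 1992 genes that varied with hour, 1118 to 1538 in all mice, 0 to 2 for lighter KO mice, 1 to 5 for the contrast of left-out and kept mice and 1 to 14 for the weight slope. For heavier WT mice it gave 0 each time. That contrast called 3 genes with no filter and 4 with DESeq2; DESeq2 called 1 for heavier WT and 6 for lighter KO mice. The weight slope called 0 genes in WT and 2 in KO.

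Of the 76 named genes called at matched weight, 49 were called in every fit without 1 mouse. Of these 76, 23 lost their call in the additive model, 24 at 29 to 31 g, 27 without ZT20, 13 without ZT12, 15 without KO mice 20, 21 and 43, 9 with cage as a block and at most 5 under each other alternative; none changed sign. Averages near 0 did: Arntl was -0.1345 in the additive model, -0.2659 without ZT12, -0.0386 at 26 to 32 g, -0.0718 with housing, -0.1247 with cage and -0.0084 with weight in all mice, and ranged from -0.0842 to 0.0828 without 1 mouse. Fgf1 was 0.0228 in the additive model, 0.0682 without ZT20 and 0.1208 without ZT12, and ranged from -0.0404 to 0.0261 without 1 mouse. Odc1 was 0.0118 without ZT20 and 0.0668 without ZT12, and Bcam was -0.0042 with weight in all mice. The causes were not tested.

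Mouse numbers occur once each and pair no mice across groups; cages that held both genotypes entered only as a random block, which called the 490 genes above. The limits are groups of 2 to 4 mice, a remaining weight difference, a common depth set before deposit, and 1 weight measurement per mouse. DESeq2 for the left-out mice, leaving out mice from the 48 and leaving out ZT20 or ZT12 were added after the data were seen.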

Other observations

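The following genes were chosen after their values were seen. The maternally expressed noncoding RNAs Meg3 and Rian, which lie in 1 imprinted cluster, were higher in KO at matched weight, by 0.93 ± 0.18 (log2 fold change ± SE; adjusted p = 0.00302) and 0.85 ± 0.15 (adjusted p = 0.000689). Mirg, from the same cluster, was higher by 0.85 ± 0.24 (adjusted p = 0.0483). The paternally expressed gene Peg3, from another imprinted region, fell by 0.61 ± 0.09 on the log2 scale (adjusted p = 6.71e-05). For Meg3, Rian and Peg3 the estimates in all 48 mice were 0.85, 0.78 and -0.55, each smaller than at matched weight; for Mirg it was 0.88, larger than at matched weight. None of the 4 was called for a difference that varied with hour.

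Msln and Upk3b, known as markers of the mesothelium that covers organs, were higher in the lighter KO mice than in kept KO mice, by 0.98 ± 0.20 and 1.004 ± 0.24 on the log2 scale. Neither was called by edgeR (adjusted p = 0.112 and 0.229). Between genotypes at matched weight Msln differed by 0.06 ± 0.12 (adjusted p = 0.852) and Upk3b by -0.24 ± 0.15 (adjusted p = 0.45).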
